A study of Drosophila melanogaster with 4 samples.

Results

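The telomere-proximal ends of 3 autosomal arms, 2L, 3L and 3R, were examined for Myb in wing imaginal discs. A tip was the outermost 500 kb of an arm on the dm3 assembly of *Drosophila melanogaster*, that is bases 1 to 500000 of 2L and of 3L and bases 27405000 to 27905053 of 3R. Probes of the tiling arrays that fell in these stretches were averaged in non-overlapping 1-kb bins, and a bin was kept if it held 5 or more probes. This gave 500 bins in the tip of 2L, 491 in that of 3L and 488 in that of 3R, together 1479 of the 118728 bins on the 6 chromosome arms. In 3L, 7 further bins had no probe and 2 had fewer than 5, and in 3R these numbers were 9 and 3. The tips were set against the 2 Mb next to them on the same arm, which held 1965 bins on 2L, 1982 on 3L and 1975 on 3R.

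In *Drosophila* the chromosome ends carry arrays of retrotransposons in place of a telomerase repeat, followed inwards by subtelomeric repeats and then by ordinary gene-rich euchromatin, and reporter genes placed close to an end can be silenced. Myb is a sequence-specific DNA-binding protein of the dREAM complex, which it shares with E2F2 and Rbf proteins, and it is best known for activating genes of the mitotic phases. Which of the outermost bases of the assembly are telomeric or subtelomeric repeat was not determined here.

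Myb was mapped by ChIP-chip: DNA recovered with an antibody from crosslinked, sheared chromatin is hybridized to a tiled genomic array beside input DNA of the same chromatin. All chromatin came from 1 genotype and 1 condition, male *yw67* larvae in the 3rd instar, with many discs pooled for each of 2 biological replicates, so every value below has n = 2 and no groups of samples were compared. Each replicate was hybridized to 2 array designs, and the tips of 2L and 3L were on design 1 and that of 3R on design 2. The Myb immunoprecipitate carried Cy5 and the input Cy3 on all 4 arrays, without a dye swap. Values are log2 ratios of immunoprecipitate over input relative to the median genome probe of the array, so 0 stands for that median and not for the absence of Myb. A wing disc holds epithelial cells of several fates together with muscle precursors, and the cells that contributed to a value cannot be told apart. Dye and immunoprecipitate cannot be told apart, nor can replicate and scan batch, since each replicate was scanned as a batch of its own. The share of genome spots well above background was 97.7% to 98.6% in the input of an array.

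All 3 tips lay higher than the adjoining 2 Mb in both replicates. On 2L the median bin of the tip was 0.33 in replicate 1 and 0.35 in replicate 2, against 0.05 and 0.06 in the adjoining 2 Mb. On 3L it was 0.33 and 0.34 in the tip, against 0.19 and 0.23 next to it. On 3R the values were 0.27 and 0.34 in the tip, against 0.13 and 0.10 next to it. The tips thus had nearly the same median level, while the stretches beside them differed, with 2L lowest and 3L highest. Levels on 3R are relative to the median of design 2, which holds other probes, so they are not strictly comparable with those on 2L and 3L. The difference was 0.29 ± 0.0012 on 2L (SD, n = 2, adjusted p = 8.29e-23), 0.12 ± 0.02 on 3L (adjusted p = 4.41e-06) and 0.19 ± 0.07 on 3R (adjusted p = 3.02e-12), all two-sided from limma with Benjamini-Hochberg adjustment over 216 segments of 500 kb, each set against the next 2 Mb of its arm. In this fit the spread between replicates was shared fully across segments (SE 0.03 for each), so the p-values measure a difference against the spread of these 2 replicates and not against the variation along the arms. With tips of 250 kb, set against the 2 Mb next to them, the difference was 0.0157 on 3L (adjusted p = 0.657) and 0.0464 ± 0.16 on 3R (SD, n = 2, adjusted p = 0.174, limma). That reference starts at 250 kb and so takes in the inner part of each 500-kb tip. The outer part was thus not called against a stretch that includes the rest of the tip. With tips of 1 Mb, again against the next 2 Mb, the difference was 0.20 on 3L (adjusted p = 4.55e-15) and 0.0421 on 3R (adjusted p = 0.0644, limma). Against all the rest of the arm the difference on 3L was 0.34.

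That variation was wide. By the same test 92 of the 216 segments (42.6%) were higher than the 2 Mb next to them, and among the differences of all segments the tips of 2L, 3R and 3L ranked 9, 35 and 67. By the level itself the tip of 2L was the highest of the 42 segments of its arm, that of 3L ranked 2 of 45 and that of 3R ranked 2 of 51. Telomeric ends of the other long arms were lower in this order. The outermost segment of 2R ranked 8 of 38 and exceeded its neighboring stretch by 0.06 (adjusted p = 0.0175, limma), and that of X ranked 20 of 40 and was lower than its neighboring stretch (difference −0.19, adjusted p = 1.43e-11, limma). Nor did the difference end at 500 kb on every arm. The next 500 kb of 2L exceeded its following 2 Mb by 0.34 and that of 3L by 0.18, whereas the value on 3R was −0.05 (adjusted p = 0.0684, limma). At the opposite end of the same arms, the median bin of the centromeric 500 kb was −0.19 and −0.24 on 2L, −0.30 and −0.39 on 3L, and −0.08 and −0.04 on 3R.

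**Figure D1:**
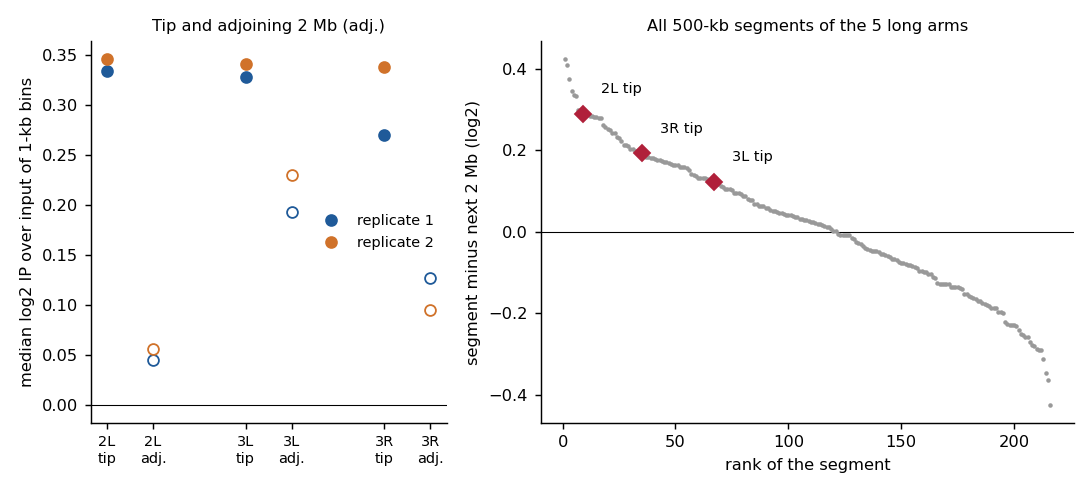
Left, median log2 ratio of immunoprecipitate over input per replicate in the tips and in the adjoining 2 Mb of 2L, 3L and 3R; right, difference between each 500-kb segment and its next 2 Mb (log2, mean of 2 replicates), ranked over 216 segments with the outermost segments drawn as diamonds. The tips lie between 0.27 and 0.35, above the adjoining stretches in both replicates, and their differences of 0.29, 0.19 and 0.12 fall within the upper part of a wide distribution.

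The input signal was lower in each tip than in the adjoining 2 Mb, though not in the order of these differences. The median input intensity of the tip over that of the adjoining 2 Mb was 0.706 and 0.701 on 2L in replicates 1 and 2, 0.900 and 0.928 on 3L, and 0.925 and 0.915 on 3R. The same ratio of the immunoprecipitate intensity was 0.843 and 0.822 on 2L, 0.987 and 0.969 on 3L, and 1.00 and 1.03 on 3R. On 2L both channels were therefore dimmer in the tip and the input more so, whereas on 3R the immunoprecipitate was level and the input dimmer. Across the bins of the tips, which are neighbors on the same arrays, the log2 ratio and the input intensity had a Spearman's rho of −0.29 in replicate 1 and −0.48 in replicate 2. It was −0.45 and −0.55 in the adjoining 2 Mb and −0.35 and −0.53 over all bins, so this relation was not particular to the tips. The input is the denominator of the ratio, which by itself favors a negative rho. When each bin was taken relative to bins of like input on its array, an alternative added after the values were seen, the differences were 0.17 on 2L (adjusted p = 0.000809), 0.11 on 3L (adjusted p = 0.00265) and 0.16 on 3R (adjusted p = 0.00279, limma). All 3 tips were still higher, and the value on 2L was well below the 0.29 found without this step.

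Single bins showed the same picture on a finer scale. At an adjusted p below 0.05 over all bins (limma), 634 of the 1479 tip bins (42.9%) were enriched in the immunoprecipitate, against 1617 of 5922 (27.3%) in the adjoining 2 Mb and 23.3% of all bins on the arms. The share was 43.0% on 2L, 43.6% on 3L and 42.0% on 3R, and in the adjoining stretches 24.9%, 34.1% and 22.9%. Depletion was rare, with 46 tip bins (3.11%) called, against 6.47% in the adjoining 2 Mb and 10.8% of all bins. With the arrays centred on the mode of their ratios, 54.2% of tip bins and 31.6% of all bins were enriched, and 1.49% and 4.98% depleted. Without a test, 69.2% of the tip bins were above 0 in both replicates, against 50.3% next to them and 43.3% of all bins. Neighboring bins share fragments, so these counts describe stretches of sequence and are not counts of independent sites. Across the tip bins, Pearson's r between replicates was 0.71, and the SD of a bin had a median of 0.17.

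Enriched bins were dim in the input. Their median input intensity was 681 in replicate 1 and 512 in replicate 2, against 1558 and 1131 for the depleted bins and 1082 and 921 for the remaining bins of the tips. The immunoprecipitate intensities of enriched bins, with medians of 1143 and 901, were by comparison close to those of the depleted bins, at 1122 and 832. With probes of extreme input left out, 45.6% of the tip bins and 24.8% of all bins were enriched. Bins were not called relative to bins of like input, so the part of the input signal in these calls was otherwise not tested.

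Along the tips the signal came in broad blocks. In windows of 50 kb, 28 of the 30 tip windows were above 0 in both replicates, against 80 of 120 in the adjoining 2 Mb. On 2L the windows ran between 0.05 and 0.76 in the mean of both replicates, and the highest of all 50 windows examined on that arm lay between 400 and 450 kb from the end (0.63 and 0.89). On 3R the window between 350 and 400 kb (0.58 and 0.81) was likewise the highest of 50, and the lowest tip window, between 50 and 100 kb, was −0.13 and 0.02. On 3L the tip windows stayed between 0.03 and 0.55, and the highest window examined on that arm lay in the adjoining 2 Mb, where the mean reached 0.80. The lowest tip windows of 3L were the outermost, with −0.19 and 0.25 within 50 kb of the end and 0.02 and 0.10 in the next 50 kb. In the outermost of them, 443 of 512 probes were well above background and unsaturated throughout and measured 0.11 and 0.45. The other 69 probes measured −1.94 and −1.08, so the low place of this window depends on them. These criteria also select on the immunoprecipitate. Tip and adjoining windows overlapped in range on every arm. Between replicates, Pearson's r over the 50 windows was 0.97 on 2L, 0.90 on 3L and 0.92 on 3R.

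**Figure D2:**
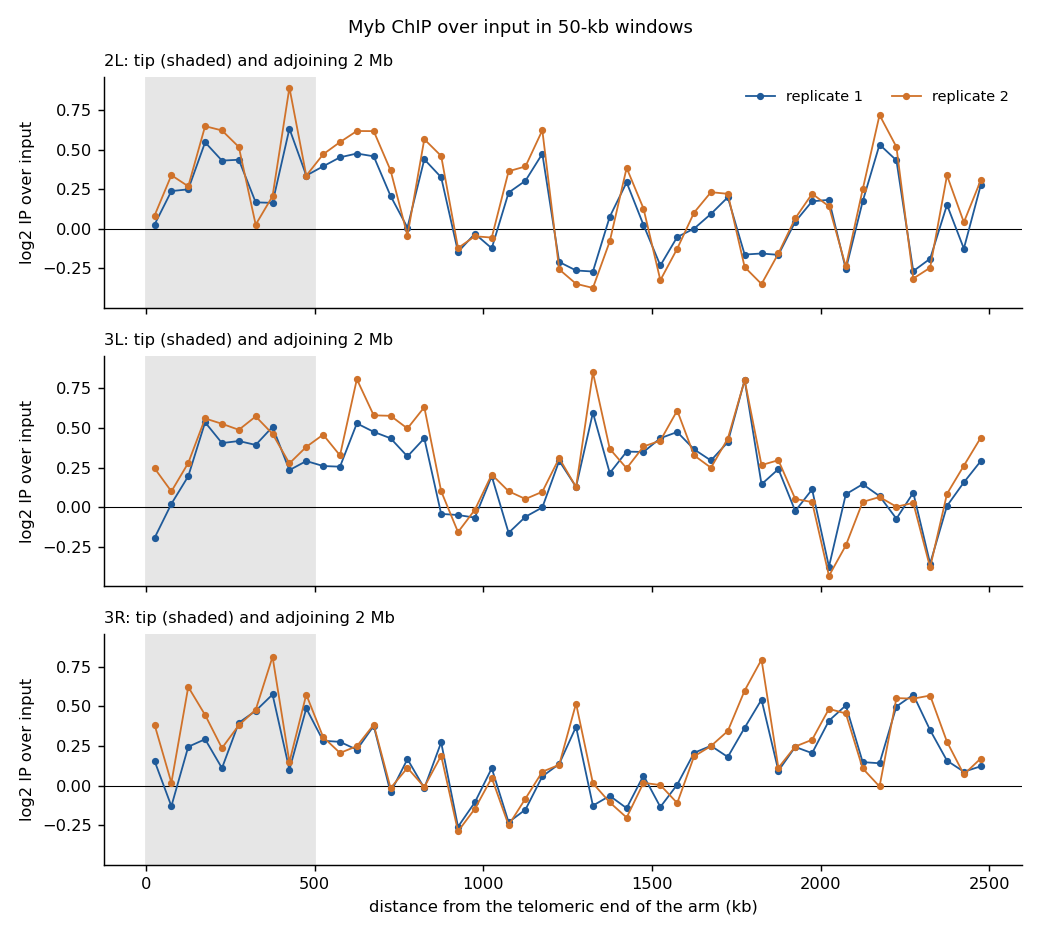
Mean log2 ratio of immunoprecipitate over input in 50-kb windows against the distance from the telomeric end (kb) on 2L, 3L and 3R, 1 line per replicate, with the tip shaded and the adjoining 2 Mb beside it. Most tip windows lie above 0, the highest window of 2L and of 3R falls in the tip, and windows of the adjoining 2 Mb reach up to 0.80 on 3L.

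The longest unbroken stretch above 0 in both replicates covered 39 bins of 2L, from 409 to 448 kb, and all 39 bins were enriched, with a mean of 0.79 and 1.05. It holds the gene *expanded* (*ex*), an upstream component of the Hippo pathway that restrains growth of the wing disc, beside *AP-2alpha*, a subunit of the clathrin adaptor, and *ebi*, a WD40 protein of transcriptional corepressor complexes. On 3L the longest such stretch ran over 33 bins from 339 kb, of which 23 were enriched (0.65 and 0.64), and on 3R over 28 bins from 355 kb, of which 24 were enriched (0.53 and 0.76). The longest stretches below 0 in both replicates were shorter. They held 8 bins on 2L from 346 kb, of which 4 were depleted (−0.32 and −0.47), 11 bins on 3L from 98 kb, of which 3 were depleted (−0.38 and −0.30), and 23 bins on 3R from 57 kb, of which 3 were depleted (−0.32 and −0.23). The 2L stretch below 0 was bright in the input, with a median of 5991 and 5472, against array medians of 1189 and 1051. The stretches above 0 were picked after their values were seen.

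Regions bound by Myb were then called with a neighborhood rule on the mean of both replicates. A probe counted if it and a neighbor within 1000 bp had a mean p-value below 0.05. A region was a chain of at least 4 such probes with gaps of at most 300 bp from each to the next. The tips held 364 regions, 116 on 2L, 132 on 3L and 116 on 3R, which covered 31.6% of their length. The adjoining 2 Mb held 984 regions covering 20.9%, and the 6 arms 17949 regions covering 18.2%. Per 100 kb there were 24.3 regions in the tips, against 16.4 in the adjoining stretches and 14.9 on the arms as a whole. Regions had a median length of 840.5 bp in the tips, against 776 bp next to them and 773 bp on the arms. Tip regions were the longer on 2L (868.5 against 710 bp) and 3R (843.5 against 736 bp) but the shorter on 3L (838.5 against 902 bp). The median log2 ratio of the tip regions was 0.79, against 0.77 next to them and 0.78 on the arms. Regions of the tips were thus more frequent. Their like median log2 ratio is in large part set by the rule, since every region had to pass the same p-value threshold. Of the 364 regions, 208 (57.1%) were also found in each replicate alone, against 520 of 984 (52.8%) in the adjoining 2 Mb. These counts rest on a rule and carry no test.

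**Figure D3:**
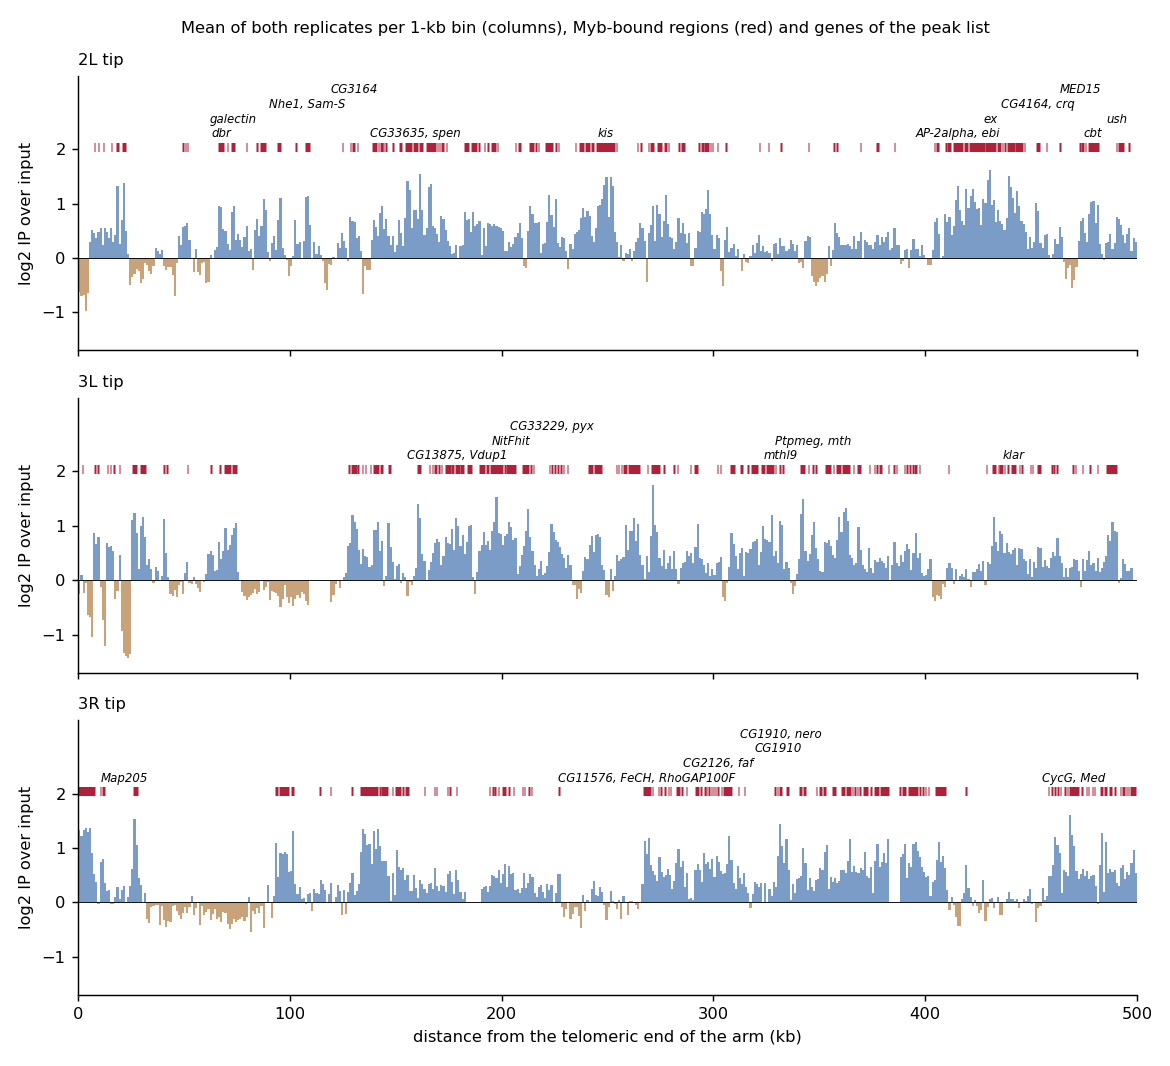
Mean log2 ratio of both replicates per 1-kb bin (columns) against the distance from the telomeric end (kb) in the tips of 2L, 3L and 3R, with Myb-bound regions in red and the genes that the peak list names beside them. Blocks of columns above 0 alternate with shorter blocks below 0, and on 2L the broadest block, from 409 to 448 kb, holds *ex*, *AP-2alpha* and *ebi*.

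Genes could be named for part of these regions only. Of the 364 regions, 27 overlapped an entry with a gene name in the held part of the study's peak list, 60 had a held transcript within 1 kb, and 284 had neither. The 27 regions were all above 0 in both replicates, which the calling rule makes likely, and ranged from 0.37 to 1.47 in replicate 1 and from 0.85 to 1.77 in replicate 2. Replicate 2 was the higher in 24 of the 27, and in 222 of the 364 regions of the tips.

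Growth and signaling genes stood among them. The region at *ex* (2L, bases 428397 to 433345) measured 0.95 and 1.55, and its highest bin, at 430001, reached 1.12 and 2.13, the highest of the 2L tip in these signals. That bin was dim in the input, with an intensity of 193 in replicate 1 and 61.8 in replicate 2, and its mean of 1.63 was 0.77 with background correction by normexp and 1.09 without probes of extreme input, in both the lowest of the 5 highest bins of the tip. On 3R a region at *Medea* (*Med*), the Smad4 that carries the Dpp signal to the nucleus, and *Cyclin G* (*CycG*) measured 0.92 and 1.30 (27432598 to 27437271). The bin at 27436001 within it reached 1.13 and 2.10, the highest of the 3R tip in these signals, again with a dim input of 240 and 129. With normexp its mean was 1.26, below that of bin 27901001 near the arm end (1.37). At *u-shaped* (*ush*), a zinc-finger cofactor of the GATA factor Pannier in patterning of the dorsal thorax, a short region of 510 bp measured 1.19 and 1.69. Its mean of 1.44 was the highest of the 2L tip, but with normexp it was 0.95, below the region at 17850 (1.18).

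Regulators of chromatin and transcription were also represented. The longest region of the tips, 8919 bp from base 244618 of 2L, lay at *kismet* (*kis*), which encodes a CHD-family chromatin remodeler, and measured 0.95 and 1.29. The regions at *MED15*, a subunit of the Mediator complex, and at *cbt*, a zinc-finger transcription factor, measured 0.82 and 1.29 and 0.83 and 0.96. The region at *spen*, a nuclear RNA-binding protein, and *CG33635* measured 0.76 and 1.07, and that at *ebi* and *AP-2alpha* 0.90 and 1.09. Replicates lay close together at *cbt* (SD 0.09) and at *AP-2alpha* and *ebi* (SD 0.13), and farther apart at *ex* (SD 0.42).

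Metabolic and membrane genes followed. The region at *Sam-S*, the S-adenosylmethionine synthetase, and *Nhe1*, a sodium-proton exchanger, measured 0.59 and 1.56. At *FeCH*, the ferrochelatase of heme synthesis, *RhoGAP100F* and *CG11576* the values were 0.94 and 1.16, and at *CG1910* and *nero*, a deoxyhypusine hydroxylase that modifies the translation factor eIF5A, 1.09 and 1.62. The neighboring region at *CG1910* alone measured 1.47 and 1.44, with the smallest SD of the named regions (0.02). On 3L, *Ptpmeg*, a tyrosine phosphatase, and *methuselah* (*mth*), a G-protein-coupled receptor, shared a region with 0.78 and 1.75, whose mean of 1.26 was 0.75 with normexp. The 2 regions at *mthl9*, a relative of *mth*, measured 1.39 and 0.89 and 0.76 and 1.69, so that the order of the replicates was turned between them although they lie less than 1 kb apart. The mean of the inner one was 1.23, and 0.71 with normexp. At *pyrexia* (*pyx*), a TRP channel, and *CG33229* the pair of regions measured 0.61 and 1.77 and 1.02 and 1.23.

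Cytoskeletal and other genes completed the list. A pair of regions at *fat facets* (*faf*), a deubiquitinase, and *CG2126* measured 0.49 and 1.43 and 0.75 and 1.16. At *Map205*, a microtubule-associated protein and the named gene closest to the end of 3R (10.5 kb), the values were 0.61 and 1.43. The lowest named region, at *klarsicht* (*klar*), which positions nuclei, measured 0.37 and 0.85 and ranked 119 of the 132 regions of the 3L tip. The regions at *dbr* (0.59 and 1.12), *galectin* (0.70 and 1.09), *CG3164* (0.67 and 0.97), *CG4164* with *crq*, a receptor for apoptotic cells (1.11 and 0.95), *CG13875* with *Vdup1* (0.93 and 1.16) and *NitFhit* (0.75 and 1.13) were also above 0 in both replicates.

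**Figure D4:**
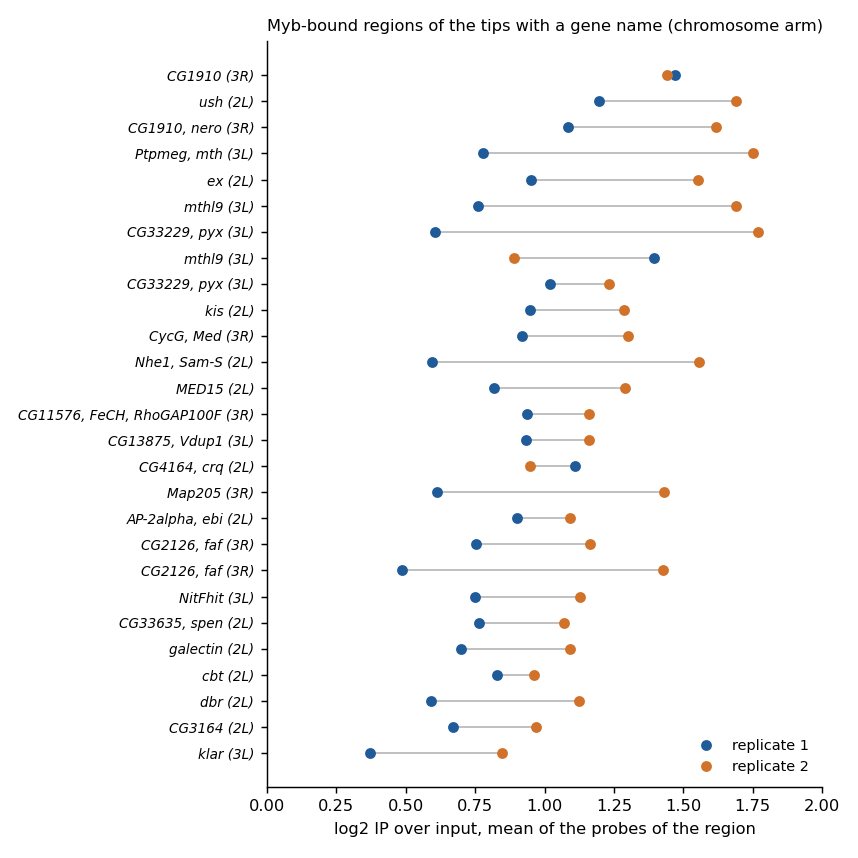
Log2 ratio of immunoprecipitate over input in each replicate (dots) for the 27 Myb-bound regions of the tips that carry a gene name, ordered by the mean of both replicates, with the arm in brackets. All lie above 0, replicate 2 is the higher in 24 of them, and the replicates are closest at *CG1910* and farthest apart at *pyx* and *CG33229*.

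Several of the highest regions had no gene in the held tables. On 3R, 27571965 to 27572334 measured 1.70 and 2.08 over only 4 probes, and 27441757 to 27442588 measured 1.34 and 1.89 over 12 probes. On 2L, 438642 to 442301, inside the broad block next to *ex*, measured 1.09 and 1.53, and 160926 to 162857, close to the *spen* region, 0.88 and 1.69. On 3L, 25265 to 27660 measured 1.01 and 1.82 and 340749 to 343186 measured 1.02 and 1.60. The highest bin of the tips in these signals, at 271001 of 3L, reached 1.16 and 2.33 and was dim in the input (382 and 125). With normexp its mean was 1.34, below that of bin 197001 of 3L (1.45). Of the 15 highest bins, 5 in each tip, 13 had an input below the array median in both replicates, and in all 15 the value of replicate 2 was the higher. A dim input was common to the enriched bins of the tips, of which 81.5% lay below the array median in each replicate. Of the tip bins called in neither direction, 54.9% and 53.3% did. The input is the denominator of the ratio, so a call of enrichment by itself favors bins of dim input.

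By the mirrored rule 3 depleted regions lay in the tips, which hold 1479 of the 118728 bins, of 1891 on the 6 arms. The null was fitted to the probes below the mode, which the mirrored rule then tests, so the rule itself limits such calls. No count is given for the adjoining 2 Mb. They were 2L 45022 to 45467 (−0.97 and −1.19), inside the transcript of *Cda5*, a chitin deacetylase, 3L 20027 to 25116 (−1.75 and −0.83), and 3R 27833869 to 27834106 (−0.77 and −0.98). In the 5 bins of the 3L region an average of 40.0% and 46.7% of spots were well above background in the immunoprecipitate, and 49.2% and 49.7% in the input, so its ratios rest largely on spots near background. Among the lowest bins of 2L and 3R that were called depleted, 134001 of 2L lay within 1 kb of *Gs1*, a glutamine synthetase (−0.80 and −0.53), and 27667001 of 3R at *RhoGAP100F* (−0.56 and −0.39).

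The ends of transcripts were examined separately, with the probes that start within 500 bp of an end. Coordinates were held for 37 genes of the tips with 78 ends, and because the held part of the expression table was sorted by its p-value in *Myb* mutant discs these genes are not a random sample, nor is their strand given. Of the 78 ends, 45 (57.7%) were enriched and 3 (3.85%) depleted at an adjusted p below 0.05 (limma). Among all 3671 held ends, 45.6% were enriched and 2.34% depleted. On 2L 13 of 26 ends were enriched, on 3L 23 of 30 and on 3R 9 of 22, so that 3L lay above and 3R below the share of all held ends, by counts that carry no test. The median end measured 0.47 in the tips, against 0.35 over all held ends. At least 1 end was enriched in 28 of the 37 genes (75.7%), against 1094 of the 1737 held genes (63.0%).

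Both ends of *ND-15*, a subunit of mitochondrial complex I on 2L, were the highest of the list, with 1.31 and 1.54 at one end (adjusted p = 5.7e-05) and 1.51 and 1.59 at the other (adjusted p = 5.06e-05, limma). Its ends lie less than 1 kb apart and share probes. Both ends were also enriched at *U2af38*, the small subunit of a splicing factor (0.46 and 0.53, and 0.43 and 1.27), at *FeCH* (0.79 and 0.85, and 0.75 and 1.10) and at the larval serum protein gene *Lsp1gamma* (0.71 and 0.76, and 0.90 and 0.52), which is known for its expression in the fat body. The ends of *U2af38*, too, lie less than 1 kb apart, so the stretches averaged around them overlap in part. At *rod*, a kinetochore protein of the spindle checkpoint, 1 end measured 0.45 and 1.17 (adjusted p = 0.0021, limma) and the other 0.13 and 0.29 (adjusted p = 0.264). At *ttk*, a BTB zinc-finger repressor, 1 end measured 0.93 and 0.84 and the other 0.38 and 0.19 (adjusted p = 0.14, limma). A high end beside a lower one was also seen at *shv* (1.23 and 1.07 against 0.30 and 0.26) and *Ir21a*, a receptor of cool-sensing neurons (0.74 and 1.22 against −0.31 and −0.43).

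No end passed the test at *Dic61B*, a dynein intermediate chain (0.16 and 0.05, and 0.21 and −0.10), or at *eEF1alpha2*, a translation elongation factor (0.43 and 0.08, and 0.30 and 0.04). The 3 depleted ends belonged to *CG4822* (−0.44 and −0.73), *RhoGAP100F* (−0.56 and −0.39) and *CG2053* (−0.34 and −0.76). At *RhoGAP100F* the depleted end, at 27667491 of 3R, lies apart from the bound region that carries its name (27634594 to 27638261).

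The outermost kilobases of the arms differed in probe number and signal. On 3R the outermost 10 kb was the highest, with a mean of 0.78 and 1.16 and 8 of 10 bins enriched. A region of 7635 bp (27897377 to 27905011) that reaches the last probes of the arm measured 0.99 and 1.45 over 93 probes, and nearly all spots of these bins were well above background. Behind it, from 57 kb inwards, lay the longest 3R stretch below 0.

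On 2L the first 5 bins, bases 1 to 5000, had a mean of −0.90 and −0.55 and all 5 were called depleted. These bins held 5 to 7 probes each, and their input was 4.32 times the array median in both replicates. The 30 probes were then split by the quality of their spots. For the 20 probes that were well above background and not saturated in both channels and replicates the mean was 0.19 and 0.40, whereas for the other 10 it was −3.07 and −2.41, with an input of 358 and 26.5 and an immunoprecipitate of 45.6 and 4.27. In replicate 1 all spots of these bins were well above background in both channels, and in replicate 2 an average of 66.3% per bin were, so the low values of replicate 1 do not come from spots below that mark. The mean of these bins was thus below 0 with the 10 probes and above 0 without them. The split also required an immunoprecipitate well above background, so it favors probes of high ratio. It cannot show what lowered the other probes, and the cause was not tested.

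On 3L the first 20 bins, again with 5 to 7 probes and an input 4.41 and 4.15 times the array median, had a mean of −0.30 and 0.28, with 8 enriched and 5 depleted. Here 101 of 120 probes were well above background and unsaturated throughout and measured 0.22 and 0.73, and the other 19 measured −3.18 and −2.15. This split, too, selects on the immunoprecipitate and so favors probes of high ratio. The next 5 bins, 20001 to 25000, were all depleted (−1.75 and −0.83), with an input of only 25.6 and 26.1, against array medians of 1189 and 1051 and negative controls of 7.68 and 7.11. Just 25 of their 64 probes passed the same spot criteria, at −1.48 and −0.52. The bins directly behind them held 3L 25265 to 27660, the highest region of that tip.

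**Figure D5:**
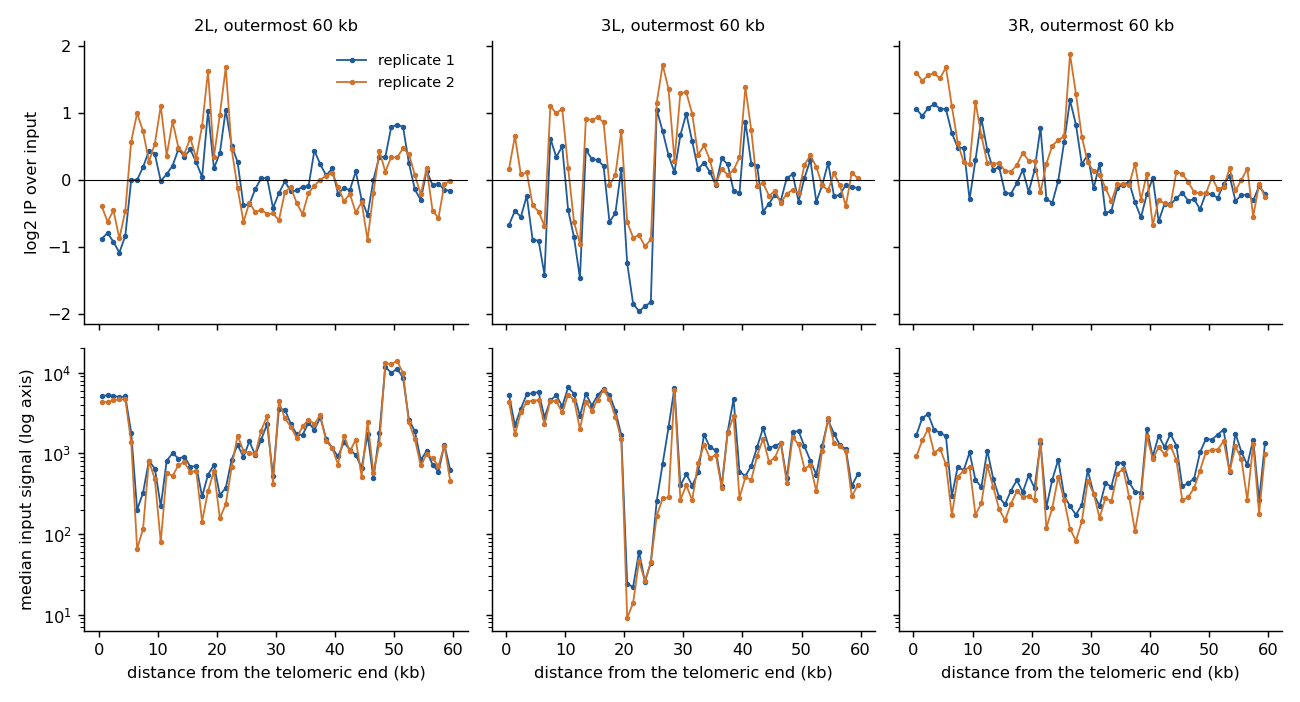
Log2 ratio of immunoprecipitate over input per replicate and input intensity (log axis) in 1-kb bins of the outermost 60 kb of 2L, 3L and 3R, against the distance from the telomeric end (kb). The 3R end starts high, the first 5 bins of 2L lie below 0 at an input more than 4 times the array median, and on 3L a bright stretch of 20 kb is followed by 5 bins near the level of the negative controls.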

How the data were processed

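Myb ChIP-chip of 2 replicates on 2 array designs was analysed, from the scanner output of the 4 arrays. Per the file headers, Agilent Feature Extraction (version 11.5.1.1, dm3 grid) had subtracted the background from the deposited intensities and normalized the dyes array by array. The deposited log10 ratio of a spot was used only as a check, and the ratio computed here was within 0.001 of it for 99.5% to 99.7% of spots. A deposited table of the authors' log2 values, 1 column per replicate and not centred on 0, served as an alternative after centring. Its columns had a Pearson's r of 0.977 to 0.983 with the scanner ratios of the same replicate, and 0.567 to 0.651 with those of the other.

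Control spots and spots flagged as outliers (0.0364% to 0.353% of an array) were left out and saturated spots were kept. The log2 of processed Cy5 over processed Cy3 was centred on the median of the genome probes of each array, with no loess or quantile step. Bins, 500-kb segments and transcript ends were tested with intercept-only models in limma version 3.58.1 (R version 4.3.3), two-sided, with Benjamini-Hochberg adjustment over all features of a kind. Nothing says more of the replicates than that they are biological, and p-values measure only the spread between these 2. The null for regions was a normal distribution per design, fitted to the mode and the probes below it (−0.14 with SD 0.449, and −0.10 with SD 0.422). The fits were tested on simulated data with known changes.

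Named were, per tip, the 5 highest and 5 lowest called bins, the 5 highest regions, the longest region and stretch, and the held transcripts, with the regions that carry a gene of the peak list and the outermost stretches added after values were seen. The members and lists were chosen with earlier results of these data known. Only part of the peak list (1400 entries, used for names) and of the expression table (1999 rows, used for positions, read as dm3) is held, so most regions stay without a gene, and the fold changes and p-values of the expression table were not used. Alternatives changed the signal, centring, spot filter, bin width, length of the tip, region threshold and replicates. The number of arrays limits the precision.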

Additional observations from a re-analysis of the deposited data

How the results depend on the processing

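Taken as the mean of the replicates used, the differences between the tips and the 2 Mb next to them kept their direction under all alternatives run. Where a test was possible, they kept their side of the threshold under all but 3. With a tip of 250 kb the difference was 0.0157 on 3L (adjusted p = 0.657) and 0.0464 on 3R (adjusted p = 0.174, limma). On 3R its SD was 0.16, so the replicates lay on opposite sides of 0. With a tip of 1 Mb the difference was 0.0421 on 3R (adjusted p = 0.0644, limma). The 2-Mb reference moved with the length of the tip, and for 250 kb it included the inner part of the 500-kb tip. The cause was not tested. Left with 1 replicate at a time, the difference ranged from 0.2887 to 0.2904 on 2L, from 0.1109 to 0.1347 on 3L and from 0.1425 to 0.2432 on 3R, and the regions numbered 317 to 370. Bin calls could not be tested without a replicate. The share of depleted tip bins was 1.91% in the deposited table, against 9.28% of all bins, and 1.49% with centring on the mode, against 4.98% of all bins. Centring on the mode also moved the enriched share to 54.2% of the tip bins, against 31.6% of all bins. Stricter region thresholds of 0.01 and 0.001 left 229 and 109 regions, by construction.

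Values that turned sign all lay in the sparsely tiled outermost bins. Under the deposited table, without saturated and dim spots, and without probes of extreme input, bin 3001 of 2L measured 0.33, 0.35 and 0.34, bin 1001 of 2L 0.29, 0.31 and 0.30, bin 2001 of 2L 0.33, 0.32 and 0.30, and bin 12001 of 3L 0.33, 0.30 and 0.28. The mean of the first 5 kb of 2L was 0.30, 0.29 and 0.25 in the same order. That of the first 20 kb of 3L was 0.43, 0.48 and 0.50, and 0.14 with normexp. The spot filter leaves out the 10 and 19 probes there by construction, and for the other settings the cause was not tested. For the named bins, the 5 highest and the longest regions of each tip and the stretches, 228 values were computed under normexp and these settings, of which 189 moved by less than the spread between replicates, 20 moved farther and 19 turned sign. No paired analysis was possible because there was 1 group of samples.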
